A study of Homo sapiens with 12 samples.

Results

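The snoRNA host genes are long noncoding RNA genes whose introns carry small nucleolar RNAs (snoRNAs) or small Cajal body RNAs (scaRNAs). They were taken from the gene-level count table by name, as every gene whose symbol is SNHG followed by a number, together with GAS5, ZFAS1, DANCR and EPB41L4A-AS1. The rule found 32 genes among the 63541 gene identifiers of the table, all of them annotated as lncRNA genes in GENCODE release 44. Of the 32, 23 had a mean of at least 1 CPM, the unit of counts scaled to the size of a library, over the 12 libraries, and these are described below. The lowest gene inside that limit was SNHG10, with a mean of 1.97 CPM, and the highest gene outside it was SNHG14, with 0.725 CPM. The other 8 genes outside it were SNHG31 with 0.506 CPM, SNHG9 with 0.276 CPM, SNHG28 with 0.117 CPM, SNHG27 with 0.0838 CPM, and SNHG18, SNHG22, SNHG25 and SNHG32, which were not tested and had at most 0.147 CPM in any library. In SNHG28, which the rule took by its name, neither GENCODE nor RefSeq placed a snoRNA or scaRNA. SNHG32 was listed at 0 in all libraries but 1, and whether its reads were assigned to another identifier was not tested.

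The samples were 12 libraries of poly(A)+ RNA from HEK293T, an established human embryonic kidney line that carries the SV40 large T antigen. Cells received 12.5 nM of a scramble siRNA or of one of 3 siRNAs against snaR-A, here given as si-snaR-A#1, as si-snaR-A#2 and as si-snaR-A#3, and were collected after 48 h, with 3 libraries in each of the 4 groups. snaR-A is a short primate-specific noncoding RNA made by RNA polymerase III, and the comparisons ask how cells with less snaR-A differ from scramble cells. snaR-A itself was not analysed here, since no gene of that name was matched in the table, so the extent of its depletion is not given. Every group was of 1 cell line, and per the methods its 3 libraries were biological replicates handled on 1 day, so that p-values measure the spread within that day.

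Intron-encoded snoRNAs are released when the host transcript is spliced, and the excised intron is trimmed by exonucleases up to the ends of the snoRNA, which its proteins protect. C/D box snoRNAs guide 2'-O-methylation, H/ACA box snoRNAs guide pseudouridylation, and scaRNAs guide the same modifications on spliceosomal RNAs in Cajal bodies. The spliced host RNA of many of these genes has short reading frames and is degraded by nonsense-mediated decay while it is translated, so its level depends on both transcription and decay. Many host genes begin, like ribosomal protein genes, with a cytosine and a run of pyrimidines (a 5' terminal oligopyrimidine tract).

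The first bases of several host transcripts are shown because this start is the sequence feature that the family is best known for, and because genes with it went in different directions here. Each line gives 9 bases before and 21 bases from the transcript start of the RefSeq annotation of GRCh38.p14, 5' to 3' on the strand of the gene, with capitals for the unbroken run of C and T that begins with a C at the start itself.
SNHG4 (chr5:139274092-139274121, plus strand): tcccggctgCCCTTTCCCCTCCggcctctg
SNHG12 (chr1:28581853-28581882, minus strand): cttcagcgcCCTTTCTCCCCgccgcattcc
SNHG19 (chr16:2155338-2155367, minus strand): cgcccctgtCTTTTCggggtcgagtccgag
SNHG5 (chr6:85678713-85678742, minus strand): cacttcggtCTTTTacgtcggccttcgcga
ZFAS1 (chr20:49278633-49278662, plus strand): ccattcgttCTTTCgcgtctgcggtgcccg
SNHG3 (chr1:28505934-28505963, plus strand): tgagtttctgattctctaactgcgcatgct
DANCR (chr4:52712385-52712414, plus strand): gcgcgccccgcccttgcccagagtcttccc
The run was 13 bases long in SNHG4, 11 in SNHG12, 6 in SNHG19 and 5 each in SNHG5 and ZFAS1. SNHG3 and DANCR have no C at the annotated start. Of the 23 genes, 21 were matched to a RefSeq start, and 5 of these, or 23.8%, had a run of at least 5 bases, against 4.07% of all 35116 RefSeq starts. A start annotated a few bases away would give another count, and some RefSeq starts lay further than that from the GENCODE ends. That of SNHG12 was at 28581873, with the 5' end of the GENCODE gene at 28583132. That of GAS5, which had no run, was at 173869045, with the GENCODE end at 173868882. Among the 5 genes with the run, SNHG4, SNHG12 and SNHG19 rose with si-snaR-A#1, SNHG5 fell, and ZFAS1 did not pass the test, with the values given below.

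Library sizes ran from 120368308 to 180111985 estimated counts. Of 4 HEK293T markers, VIM was at 462.4 to 767.3 CPM and NEFM at 244.4 to 462.3 CPM. Of 4 kidney markers PAX2 was at 4.57 to 7.36 CPM, WT1 at 6.50 to 11.6 CPM, LHX1 at 0.121 to 0.889 CPM and PAX8 at no more than 0.099 CPM. Of 4 epithelial markers, EPCAM was at 1.71 to 2.37 CPM, CDH1 at 5.80 to 10.9 CPM and KRT8 at 6.93 to 8.87 CPM. CDH1 passed the test against scramble, lower, with each siRNA. The immune marker PTPRC reached at most 0.116 CPM. Of 5 markers of other cell types, PTPRC included, 1 was tested. It passed lower with each siRNA, at log2 fold changes of -0.17, -0.34 and -0.90. The first principal component of all genes held 37.78% of the variance and set the si-snaR-A#1 libraries, at 36.74 to 44.71, apart from the other 9, at -17.46 to -7.09. Mitochondrial transcripts took 3.66% to 4.53% of counts in the si-snaR-A#1 libraries and 4.06% to 6.05% in the others, and the part of this in the results with si-snaR-A#1 was not tested.

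In scramble cells the 4 most abundant genes in CPM were C/D hosts. SNHG29, the host of SNORD49A, SNORD49B and SNORD65, had 303.5 ± 6.009 CPM (SD, n = 3). GAS5, a growth-arrest gene whose introns carry a cluster of C/D snoRNAs, had 263.8 ± 9.692 CPM. SNHG1, the host of SNORD22 and of the run from SNORD25 to SNORD31, had 169.4 ± 5.447 CPM, and SNHG5, the host of the SNORD50 pair, had 114.1 ± 0.657 CPM. The ranges of these 4 neighbours in the order did not overlap. ZFAS1 and SNHG3 came next, at 64.0 ± 2.85 and 60.3 ± 5.14 CPM, and their ranges did overlap. Divided by the length of the canonical transcript, the level of SNHG29 was 685.1 CPM per kb, that of GAS5 343.5 and that of SNHG1 145.8 CPM per kb. Divided instead by the merged length of all annotated exons, GAS5 came first with 53.5 CPM per kb, SNHG1 had 42.6 and SNHG29 had 33.9 CPM per kb, so that the order per length depends on the transcript model. The 23 genes together had 1278 ± 31.3 CPM in scramble, 1462 ± 3.55 CPM with si-snaR-A#1, 1332 ± 14.4 CPM with si-snaR-A#2 and 1306 ± 63.7 CPM with si-snaR-A#3.

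**Figure D1:**
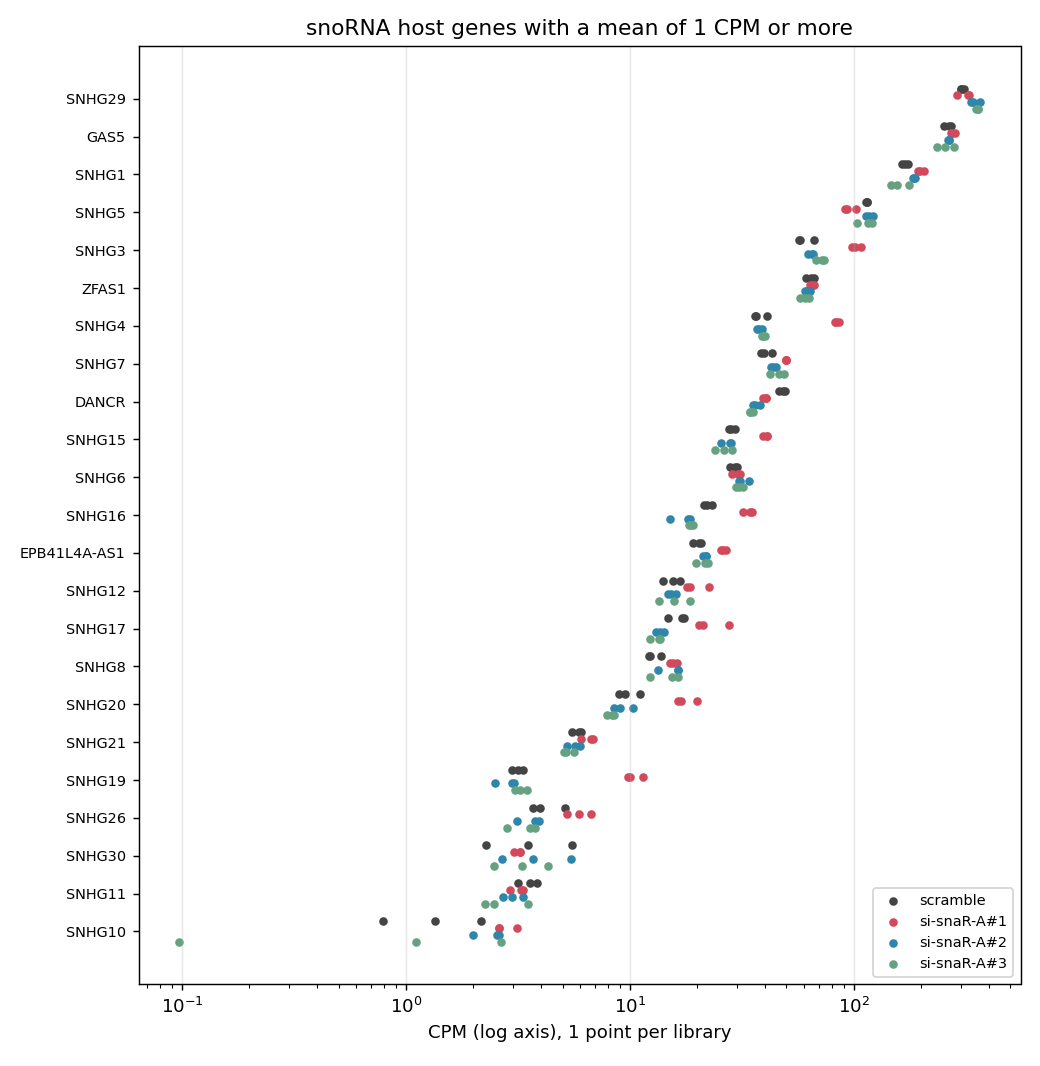
Level of each of the 23 snoRNA host genes in CPM on a log axis, 1 point per library, with 3 libraries in each of the 4 groups. SNHG29 lies between 289.7 and 367.0 CPM and SNHG10 between 0.097 and 3.13 CPM, and the si-snaR-A#1 points of SNHG19, SNHG4, SNHG3 and SNHG16 lie above all others of the gene.

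The snoRNAs themselves could not be read from these libraries. GENCODE places 47 snoRNA and scaRNA genes within the 23 genes, nearly all in introns, with SNORA9 in SNHG15 and SNORA71E in SNHG11 overlapping exons of the canonical transcript. All 47 have a row in the table, but none reached a mean of 1 CPM and 37 had a mean of 0. The cluster of GAS5, known here from RefSeq only, is not among the 47 and was not looked up. Mature snoRNAs have no poly(A) tail, and the libraries were enriched for poly(A)+ RNA, so the values below are those of the host genes and carry no measure of the snoRNAs. They are sums over all annotated transcripts of a gene, and spliced RNA was not told apart from RNA that retains introns.

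With si-snaR-A#1, 15 of the 23 host genes passed the test against scramble (edgeR quasi-likelihood test, Benjamini-Hochberg adjusted p under 0.05 over all 21999 genes tested), 13 of them higher and 2 lower. Of all genes tested, 45.2% passed, 21.9% higher and 23.3% lower, so the share of hosts that rose was above the background of the table while the share that fell was below it. All genes here include those under 1 CPM, which the hosts do not. In the fit of genes of at least 1 CPM, 62.2% passed, with 4705 of 14538 higher and 4332 lower. The share of hosts that passed in either direction, 65.2%, was close to that. The median log2 fold change of the 23 genes was 0.30, against -0.02 for all genes tested. The groups did not overlap for 15 higher and 2 lower hosts, against 52.9% of all genes in either direction. With si-snaR-A#2, 3 hosts passed, 1 higher and 2 lower (25.8% of all genes, 13.7% higher and 12.1% lower), and with si-snaR-A#3, 6 passed, 3 higher and 3 lower (29.4% of all genes, 16.5% higher and 13.0% lower). In the fit of genes of at least 1 CPM, the shares of all genes that passed with these siRNAs were 40.3% and 44.6%. The count with si-snaR-A#2 was 5 without the third si-snaR-A#1 library and 6 without the third scramble library, and that with si-snaR-A#3 was 3 without the second si-snaR-A#3 library. With upper-quartile scaling, 2 hosts were higher and 5 lower with si-snaR-A#3. All genes turned the same way under that scaling, with 2885 of 21999 higher and 3874 lower, against 3619 and 2855 in the main fit. The 3 comparisons share the scramble libraries.

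**Figure D2:**
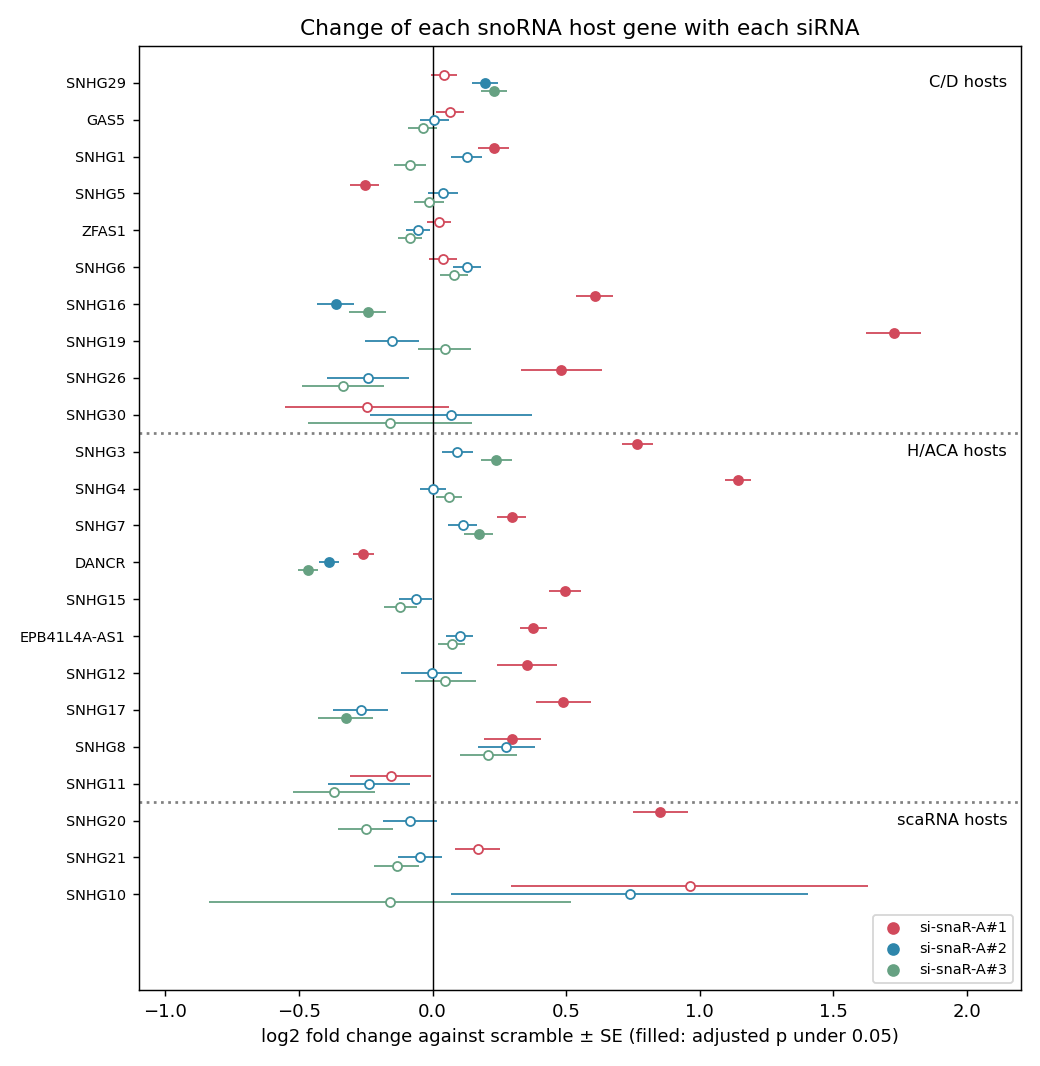
Log2 fold change against scramble (x axis) of the 23 host genes with each siRNA, grouped by the kind of RNA in their introns; bars are standard errors and filled points have an edgeR adjusted p under 0.05. Of the si-snaR-A#1 points, 15 are filled, 13 on the right, while 3 points of si-snaR-A#2 and 6 of si-snaR-A#3 are.

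Among the 10 C/D hosts, 4 rose with si-snaR-A#1 and SNHG5 fell. The change with the highest fold of the 23 genes was that of SNHG19, the host of SNORD60, a gene of 2 exons at chr16:2154792-2155405 on the minus strand of GRCh38. It was measured at 3.32, 2.96 and 3.17 CPM in the scramble libraries, 9.77, 11.5 and 10.1 CPM with si-snaR-A#1, 3.03, 2.99 and 2.50 CPM with si-snaR-A#2, and 3.08, 3.46 and 3.24 CPM with si-snaR-A#3. All 3 si-snaR-A#1 libraries thus lay above the other 9, and scramble overlapped with both other siRNAs. On the log2 scale the rise with si-snaR-A#1 was 1.73 (SE 0.10, edgeR quasi-likelihood adjusted p = 4.02e-08), which is 3.31-fold, and the value with si-snaR-A#2 was -0.15 (SE 0.10, adjusted p = 0.308).

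SNHG16, the host of SNORD1A, SNORD1B and SNORD1C at chr17:76557727-76670985, went in opposite directions. It was measured at 21.4, 22.1 and 23.1 CPM in scramble, 35.2, 31.9 and 34.4 CPM with si-snaR-A#1, 18.5, 15.1 and 18.2 CPM with si-snaR-A#2, and 19.1, 18.3 and 18.8 CPM with si-snaR-A#3. The si-snaR-A#1 libraries were all above scramble, and the 6 libraries of the other siRNAs were all below it. The log2 fold change was 0.61 (SE 0.07, with edgeR adjusted p = 1.23e-05) with si-snaR-A#1, -0.36 (SE 0.07, adjusted p = 0.00206) with si-snaR-A#2 and -0.24 (SE 0.07, adjusted p = 0.0192) with si-snaR-A#3. The last of these was 0.0718 without the second si-snaR-A#3 library and 0.0769 without the third scramble library. Averaged over the 3 siRNAs, its log2 fold change was 0.00 (SE 0.06), a mean that matched none of the single siRNAs.

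SNHG1 rose less, from 175.0, 164.2 and 169.0 CPM in scramble to 193.3, 197.6 and 204.5 CPM with si-snaR-A#1, or by 0.23 on the log2 scale (SE 0.06, with edgeR adjusted p = 0.00606). It was 182.6, 187.9 and 184.5 CPM with si-snaR-A#2, again above all scramble libraries, but the difference did not pass (adjusted p = 0.135). At a like size, this difference passed with the edgeR exact test (adjusted p = 0.00388) and with DESeq2 (adjusted p = 0.0403). It also passed in edgeR with only the libraries compared (adjusted p = 0.0153). With si-snaR-A#3 it was 146.2, 156.2 and 177.0 CPM and overlapped scramble. SNHG26, the host of SNORD93, rose with si-snaR-A#1 by a log2 fold change of 0.48 (SE 0.15, with edgeR adjusted p = 0.0206), and this call was lost without the third si-snaR-A#1, the second scramble or the third scramble library, at adjusted p of 0.075, 0.0897 and 0.0671.

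SNHG5, which begins with a pyrimidine run, fell with si-snaR-A#1 alone. Its levels were 114.5, 113.3 and 114.4 CPM in scramble, 93.3, 102.2 and 91.4 CPM with si-snaR-A#1, 121.3, 116.6 and 113.7 CPM with si-snaR-A#2, and 103.5, 115.4 and 120.2 CPM with si-snaR-A#3. The si-snaR-A#1 libraries lay below all others. The log2 fold change was -0.25 (SE 0.06, with edgeR adjusted p = 0.00233) against scramble and -0.29 (SE 0.06, adjusted p = 0.000803) against si-snaR-A#2.

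SNHG29 moved with the other siRNAs instead. It was measured at 299.4, 300.7 and 310.4 CPM in scramble, 325.2, 323.2 and 289.7 CPM with si-snaR-A#1, 341.0, 334.7 and 367.0 CPM with si-snaR-A#2, and 357.1, 352.0 and 358.1 CPM with si-snaR-A#3. All 6 libraries of the other siRNAs were above scramble, with log2 fold changes of 0.20 (SE 0.05, with edgeR adjusted p = 0.0109) and 0.23 (SE 0.05, adjusted p = 0.00364), while si-snaR-A#1 overlapped scramble at 0.04 (SE 0.05). The call with si-snaR-A#2 was lost without the third of its libraries (adjusted p = 0.0573). SNHG29 was also lower with si-snaR-A#1 than with either other siRNA, by -0.15 and -0.19 on the log2 scale (edgeR adjusted p = 0.0221 and 0.00709). The first of these calls was lost with upper-quartile scaling (adjusted p = 0.0683) and without the third si-snaR-A#2 library (adjusted p = 0.105).

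The other 4 C/D hosts did not pass the test with any siRNA in the main fit. GAS5 ranged from 252.9 to 271.5 CPM in scramble, from 270.4 to 283.1 CPM with si-snaR-A#1, from 263.1 to 266.2 CPM with si-snaR-A#2 and from 235.8 to 279.8 CPM with si-snaR-A#3, with log2 fold changes of 0.06, 0.01 and -0.04 (SE 0.05 each). ZFAS1, named for its place antisense to the start of ZNFX1, had log2 fold changes of 0.02, -0.05 and -0.08 (SE 0.04 each), and SNHG6, the host of SNORD87, had 0.04, 0.13 and 0.08 (SE 0.05 each). These standard errors were among the smallest of the 23 genes. SNHG30, the host of SNORD7, spread over 2.27 to 5.51 CPM within scramble, and its values of -0.25, 0.07 and -0.16 had a standard error of about 0.31.

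**Figure D3:**
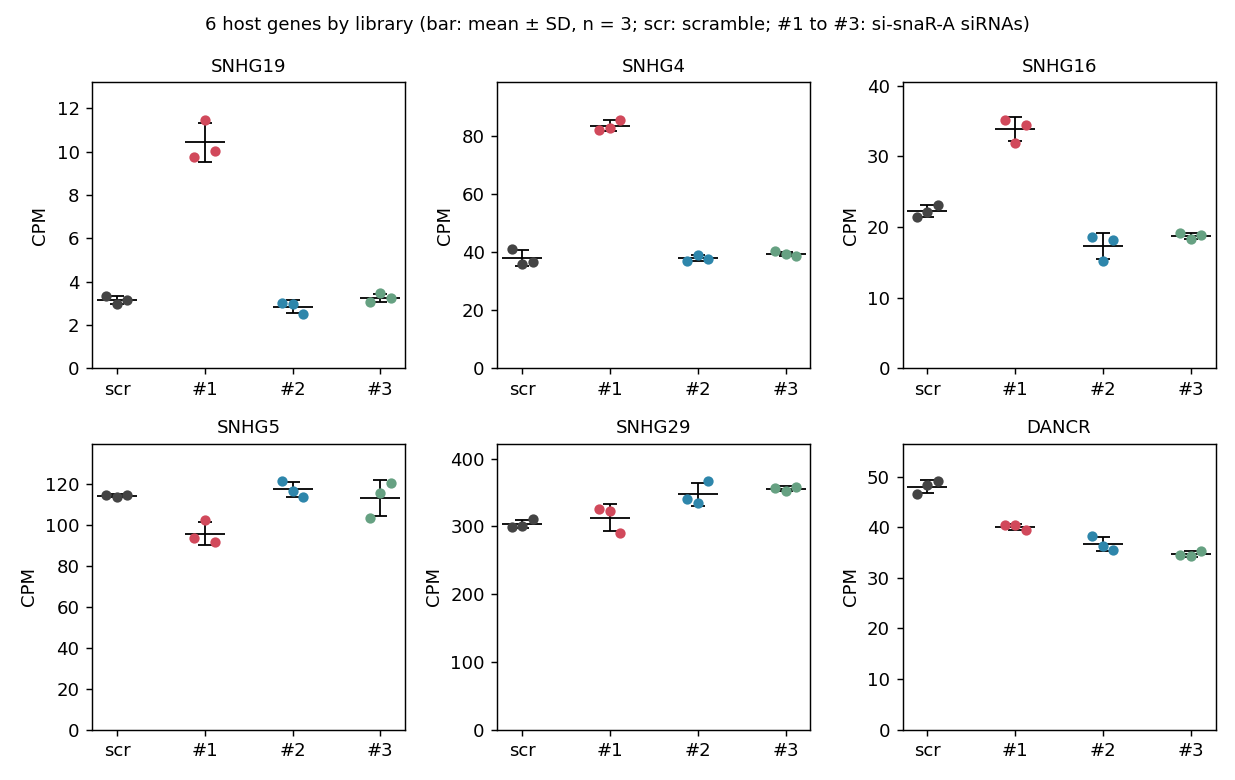
CPM per library of SNHG19, SNHG4, SNHG16, SNHG5, SNHG29 and DANCR in the 4 groups, on axes that start at 0; points are libraries and bars the mean ± SD (n = 3). SNHG19 and SNHG4 are raised with si-snaR-A#1, SNHG16 is raised with si-snaR-A#1 and below scramble with the others, and DANCR is below scramble with every siRNA.

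Of the 10 H/ACA hosts, 8 rose with si-snaR-A#1 and DANCR fell, and the median log2 fold change was 0.37, against 0.05 for the 10 C/D hosts. The difference between the classes was not tested. SNHG4, the host of SNORA74A and SNORA74D at chr5:139274102-139284899 on the plus strand, was measured at 41.1, 36.0 and 36.6 CPM in scramble, 82.2, 82.8 and 85.7 CPM with si-snaR-A#1, 37.0, 39.0 and 37.8 CPM with si-snaR-A#2, and 40.3, 39.4 and 38.7 CPM with si-snaR-A#3. The si-snaR-A#1 libraries lay far above all others and the other 3 groups overlapped. On the log2 scale the rise with si-snaR-A#1 was 1.14 (SE 0.05, edgeR quasi-likelihood adjusted p = 3.4e-09), which is 2.21-fold, against 0.00 with si-snaR-A#2, while si-snaR-A#3 gave 0.06 (SE 0.05 each). SNHG4 shares 14% of its exon length on the same strand with MATR3, a nuclear matrix protein gene, which rose with all 3 siRNAs, by 0.24, 0.23 and 0.26 on the log2 scale.

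SNHG3, the host of SNORA73A and SNORA73B, was measured at 66.2, 57.0 and 57.7 CPM in scramble, 98.5, 101.5 and 107.5 CPM with si-snaR-A#1, 62.3, 65.6 and 65.1 CPM with si-snaR-A#2, and 72.0, 67.9 and 73.5 CPM with si-snaR-A#3. The libraries of si-snaR-A#1 and also those of si-snaR-A#3 were above all scramble libraries, and those of si-snaR-A#2 overlapped scramble. The log2 fold changes were 0.77 (SE 0.06, with edgeR adjusted p = 3.66e-07), 0.09 (SE 0.06, adjusted p = 0.277) and 0.24 (SE 0.06, adjusted p = 0.00766). RCC1, the exchange factor gene of the GTPase Ran, shares 5.92% of the exon length of SNHG3 on the same strand. Its log2 fold changes were 0.58, -0.09 and 0.16, in the same order of siRNAs, and the part of shared reads in the values of SNHG3 was not tested.

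Of the other H/ACA hosts, SNHG15 (SNORA9) rose from 27.8, 29.5 and 28.4 CPM in scramble to 41.0, 39.1 and 40.7 CPM with si-snaR-A#1. Its log2 fold change was 0.50 (SE 0.06, with edgeR adjusted p = 2.23e-05), and the groups did not overlap. EPB41L4A-AS1 (SNORA13) rose from 20.4, 19.2 and 20.9 to 26.1, 26.8 and 25.6 CPM, or by 0.38 on the log2 scale (SE 0.05, with edgeR adjusted p = 4.87e-05). It shares 51.2% of its exon length with EPB41L4A on the opposite strand, whose log2 fold change was -0.08. SNHG7 (SNORA17A and SNORA17B) rose with si-snaR-A#1 by 0.30 (SE 0.05, with edgeR adjusted p = 0.000615), and its opposite-strand neighbour DIPK1B, which covers 30.3% of its exons, had a log2 fold change of 0.37. Whether counting used the strand is not given in the sources used here, so that reads of opposite-strand partners may not have been told apart. The rise of SNHG7 with si-snaR-A#3, 0.17 (SE 0.05, with edgeR adjusted p = 0.0296), came with overlapping groups and was lost under 7 of 20 alternatives.

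SNHG17, the host of a family of SNORA71 genes, was measured at 17.1, 14.8 and 17.4 CPM in scramble, 21.2, 20.4 and 27.7 CPM with si-snaR-A#1, 14.3, 13.7 and 13.0 CPM with si-snaR-A#2, and 13.5, 12.3 and 13.7 CPM with si-snaR-A#3. Like SNHG16, it was above scramble with si-snaR-A#1 and below it with the others in every library. The log2 fold changes were 0.49 (SE 0.10, with edgeR adjusted p = 0.0018), -0.27 (SE 0.10, adjusted p = 0.0782) and -0.33 (SE 0.10, adjusted p = 0.0329), of which the last was lost under 4 of 20 alternatives. The change with si-snaR-A#2 passed with the edgeR exact test (adjusted p = 0.0142) and in edgeR with only the libraries compared (adjusted p = 0.0203). SNHG12, which carries SNORA16A, SNORA44, SNORA61 and SNORD99, had a log2 fold change of 0.35 with si-snaR-A#1 (SE 0.11, with edgeR adjusted p = 0.0217), and 0.0897 and 0.0904 were the adjusted p without the third si-snaR-A#1 and the second scramble library. SNHG8 (SNORA24) had 0.30 (SE 0.11, with edgeR adjusted p = 0.0354) and lost the call under 6 of 20 alternatives. Its 0.28 with si-snaR-A#2 and the 0.21 of si-snaR-A#3 were close in size but did not pass. The change with si-snaR-A#2 passed with the edgeR exact test (adjusted p = 0.0307) and with DESeq2 (adjusted p = 0.0191). SNHG11 did not pass with any siRNA in the main fit, at -0.16, -0.24 and -0.37 (SE 0.15 each). Without the third si-snaR-A#3 library it passed with that siRNA, at -0.58 (edgeR adjusted p = 0.00654).

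DANCR, the host of SNORA26 at chr4:52712325-52723623 and an RNA described as holding back differentiation, was the 1 gene of the 23 that passed the test in the same direction with all 3 siRNAs. That is 4.35% of the hosts, against 8.0% of all genes tested, a smaller share than in the table. It was measured at 46.5, 48.3 and 49.1 CPM in scramble, 40.4, 40.5 and 39.4 CPM with si-snaR-A#1, 38.2, 36.3 and 35.5 CPM with si-snaR-A#2, and 34.5, 34.3 and 35.4 CPM with si-snaR-A#3. All 9 siRNA libraries were below the lowest scramble library. The log2 fold changes were -0.26 (SE 0.04, with edgeR adjusted p = 0.000122), -0.39 (SE 0.04, adjusted p = 1.41e-05) and -0.47 (SE 0.04, adjusted p = 2.49e-06). Over the mean of the 3 siRNAs it fell by 0.37 on the log2 scale (SE 0.03, adjusted p = 2.11e-06).

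Of the 3 scaRNA hosts, SNHG20 (SCARNA16) rose with si-snaR-A#1. It was measured at 11.1, 9.46 and 8.91 CPM in scramble, 16.3, 17.0 and 19.9 CPM with si-snaR-A#1, 9.05, 8.45 and 10.3 CPM with si-snaR-A#2, and 8.52, 7.92 and 8.36 CPM with si-snaR-A#3. The si-snaR-A#1 libraries were above all others, with a log2 fold change of 0.85 (SE 0.10, with edgeR adjusted p = 1.74e-05). SEC14L1, which shares 7.56% of its exon length on the same strand, had -0.16. SNHG21 (SCARNA15) did not pass against scramble in the main fit, at 0.17, -0.05 and -0.13 (SE 0.08 each). SNHG10 (SCARNA13) had 0.96 with si-snaR-A#1 (SE 0.67), 0.74 with si-snaR-A#2 (SE 0.67) and -0.16 with si-snaR-A#3 (SE 0.68), and its 3 si-snaR-A#3 libraries alone ran from 0.097 to 2.66 CPM. With si-snaR-A#1 its libraries, at 2.60, 2.61 and 3.13 CPM, were all above those of scramble, at 1.35, 2.16 and 0.792 CPM. The difference passed at a like size in edgeR with only the libraries compared (0.99, adjusted p = 0.025), with the edgeR exact test (0.99, adjusted p = 0.00909) and without the first si-snaR-A#3 library (0.96, adjusted p = 0.0389).

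The direct comparisons between siRNAs used no scramble library as a reference level. For si-snaR-A#1 against si-snaR-A#2, 15 of the 23 hosts passed, 13 higher and 2 lower (46.7% of all genes, 23.7% higher and 23.0% lower). For si-snaR-A#1 against si-snaR-A#3, 15 passed, again 13 higher and 2 lower (48.6% of all genes, 23.8% higher and 24.8% lower). In the fit of genes of at least 1 CPM, the shares of all genes were 63.4% and 64.7%, and 26.9% for si-snaR-A#2 against si-snaR-A#3. For si-snaR-A#2 against si-snaR-A#3, 1 host passed, against 15.6% of all genes (6.52% higher and 9.03% lower). It was SNHG1, higher by 0.21 with si-snaR-A#2 (SE 0.06, with edgeR adjusted p = 0.0268), and this call was lost without any 1 of the 3 si-snaR-A#2 libraries or without the first or the second si-snaR-A#3 library, when 0 hosts passed in edgeR and 1 to 3 had an unadjusted p under 0.05. It also gave 2 calls without the first scramble library.

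The hosts that rose with si-snaR-A#1 and were also higher with it than with each other siRNA numbered 10, or 43.5% of the 23, against 13.0% of all genes tested. They were SNHG19, SNHG16, SNHG26, SNHG4, SNHG3, SNHG15, EPB41L4A-AS1, SNHG12, SNHG17 and SNHG20, and thus came from all 3 classes. The calls of SNHG12 were the least stable of these and were lost under 7 of 20 alternatives against si-snaR-A#3, where the groups overlapped, and under 3 of 20 against si-snaR-A#2. The largest of the differences from si-snaR-A#2 among them were 1.88 for SNHG19 (SE 0.10, with edgeR adjusted p = 2.13e-08) and 1.14 for SNHG4 (SE 0.05, adjusted p = 3.5e-09), and the smallest was 0.27 for EPB41L4A-AS1 (SE 0.05, adjusted p = 0.000616). Counted by the tests against scramble alone, 10 hosts, 43.5%, passed with si-snaR-A#1 and with no other siRNA, against 20.8% of all genes. They were SNHG1, SNHG5, SNHG8 and 7 of the genes just named. This holds for the main fit, since SNHG1 and SNHG8 also passed with si-snaR-A#2 under several alternatives. The 7 that passed with none, 30.4% against 40.2% of all genes, were GAS5, ZFAS1, SNHG6, SNHG30, SNHG11, SNHG21 and SNHG10. This too holds for the main fit, since each of them but GAS5 and SNHG30 passed with an siRNA under at least 1 alternative. For these patterns, all genes include genes under 1 CPM, which the hosts do not. Shares by pattern were not taken among genes of at least 1 CPM alone. Against the mean of the 3 siRNAs, 8 hosts passed, 7 higher and 1 lower (32.2% of all genes, 15.6% higher and 16.6% lower). The share of all genes was 48.4% in the fit of genes of at least 1 CPM. Of the 7 higher genes, SNHG19, SNHG4, EPB41L4A-AS1 and SNHG8 passed with si-snaR-A#1 alone among the single siRNAs, and their means were 0.54, 0.40, 0.18 and 0.26. The call of SNHG8 was lost under 10 of 18 alternatives.

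The proteins that bind snoRNAs were measured in the same libraries, from a list of 8 core genes of which 7 were tested. With si-snaR-A#1, 5 of the 7 rose and none fell, with si-snaR-A#2, 2 rose, and with si-snaR-A#3, 3 rose. Of all genes tested, 21.9%, 13.7% and 16.5% were higher with the 3 siRNAs in order, and 45.2%, 25.8% and 29.4% passed in either direction. In the fit of genes of at least 1 CPM, 62.2%, 40.3% and 44.6% passed. DKC1, the pseudouridine synthase of H/ACA particles, went from a mean of 176.8 CPM in scramble to 274.5, 212.4 and 213.6 CPM with the 3 siRNAs in order, log2 fold changes of 0.63, 0.26 and 0.27 (edgeR adjusted p = 2.54e-08, 0.000135 and 9.18e-05). NOP10, another H/ACA protein, had 0.17, 0.24 and 0.38 and also passed with each. Those 2 genes were the core proteins called with every siRNA. Of the C/D proteins, NOP56 and NOP58 did not pass against scramble with any siRNA. The log2 fold changes of NOP58 were 0.07, -0.06 and -0.02. Those of SNU13, another C/D protein, were 0.29, 0.04 and 0.24 (edgeR adjusted p = 0.000253, 0.618 and 0.00179). SNU13 thus passed, higher, with the first and the third siRNA.

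Of 10 assembly factors, 2 rose and 2 fell with si-snaR-A#1, 3 rose and 1 fell with si-snaR-A#2, and 3 rose with si-snaR-A#3. For this list and the next, the shares of all genes tested that passed were 45.2%, 25.8% and 29.4%. NOLC1, the nucleolar and Cajal body phosphoprotein that binds snoRNPs, went from 172.6 CPM in scramble to 424.3, 394.8 and 373.4 CPM, log2 fold changes of 1.30, 1.19 and 1.11 (edgeR adjusted p = 6.15e-10, 3.91e-09 and 6.53e-09). RUVBL2, an ATPase of the assembly complex, rose by 0.34, 0.27 and 0.30. Both passed with each siRNA, as DANCR alone did among the 23 hosts. Of 8 genes of the nuclear exosome and of snoRNA trimming, 2 rose and 2 fell with si-snaR-A#1, 2 rose with si-snaR-A#2, and 4 rose and 1 fell with si-snaR-A#3. RBM7, a part of the nuclear exosome targeting complex, rose with each, by 0.26, 0.39 and 0.48.

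**Figure D4:**
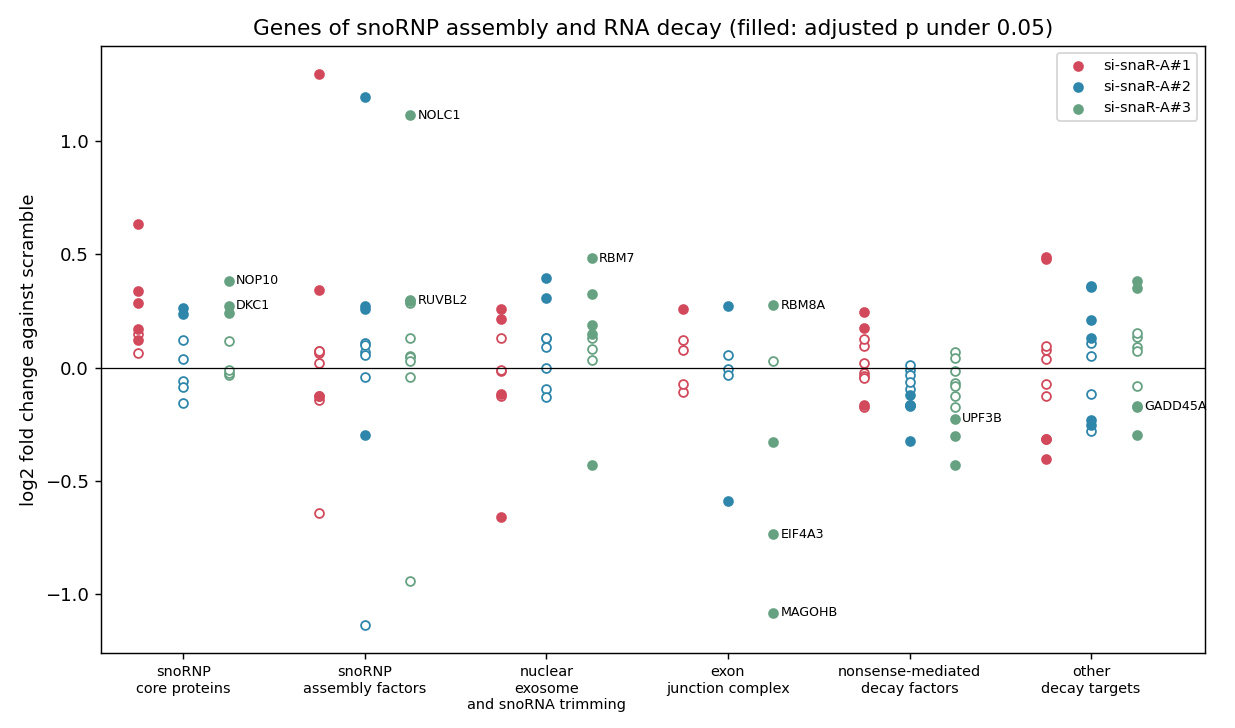
Log2 fold change against scramble (y axis) of the tested genes in 6 lists of snoRNP assembly and RNA decay, 1 point per gene and siRNA; filled points have an edgeR adjusted p under 0.05. NOLC1 lies above 1 with every siRNA, and MAGOHB and EIF4A3 lie lowest of the exon junction complex with si-snaR-A#3, at -1.08 and -0.74.

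The factors of nonsense-mediated decay, which acts on many spliced host RNAs, were called in both directions with si-snaR-A#1 and only lower with the others. Of 10 genes, 2 rose and 1 fell with si-snaR-A#1, 4 fell with si-snaR-A#2 and 3 fell with si-snaR-A#3. Of all genes tested, 23.3%, 12.1% and 13.0% were lower with the 3 siRNAs in order, and 45.2%, 25.8% and 29.4% passed in either direction. UPF3B, which links the exon junction complex to the decay machinery, fell with each siRNA by 0.16, 0.12 and 0.23 on the log2 scale (edgeR adjusted p = 0.0036, 0.0375 and 0.000733). SMG5, which acts late in the pathway, had -0.05, -0.32 and -0.30 and passed with the second and the third siRNA. SMG9, a regulator of the SMG1 kinase that was named after its values were seen, had 0.13, -0.17 and -0.43 and also passed with those siRNAs, going from 26.5 CPM in scramble to 19.7 CPM with si-snaR-A#3. Among the 5 exon junction complex genes, 1 rose with si-snaR-A#1, 1 rose and 1 fell with si-snaR-A#2, and 1 rose and 3 fell with si-snaR-A#3. EIF4A3, its RNA-binding helicase, went from 130.6 CPM in scramble to 78.4 CPM with si-snaR-A#3 (log2 fold change -0.74, edgeR adjusted p = 1.16e-06) and was at 121.2 CPM with si-snaR-A#1 and 135.6 CPM with si-snaR-A#2. MAGOHB went from 27.7 CPM to 26.3, 18.4 and 13.1 CPM in the same order.

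Other known targets of nonsense-mediated decay moved in both directions. Of 10 such genes, 2 rose and 3 fell with si-snaR-A#1, 4 rose and 2 fell with si-snaR-A#2, and 2 rose and 2 fell with si-snaR-A#3, with medians of -0.02, 0.08 and 0.08 on the log2 scale. The shares of all genes tested that passed were 45.2%, 25.8% and 29.4%. GADD45A, a stress gene whose transcript is a well-known target, fell with each siRNA by 0.31, 0.23 and 0.17. TBL2 rose by 0.49 with si-snaR-A#1 and was also higher with si-snaR-A#2, by 0.35.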

How the data were processed

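HEK293T poly(A)+ RNA was sequenced after treatment with scramble or 1 of 3 si-snaR-A siRNAs (12.5 nM, 48 h, 3 libraries per group). The authors deposited 1 table of estimated counts per Ensembl gene, made per the methods and the submitters' processing notes with Trim Galore and Salmon on hg38. The estimated counts are not whole numbers and were rounded here. Genes passing filterByExpr (21999 of 63541) were fitted over all 12 libraries with edgeR 4.0.16 (TMM factors 0.956 to 1.09, quasi-likelihood test, 7 contrasts), with p-values adjusted by Benjamini-Hochberg over all genes tested and a threshold of 0.05. SE is the absolute log2 fold change over the root of F. CPM used TMM library sizes. The fit was tested on simulated data. Libraries of a group differed by more than sampling noise. The replicate numbers did not pair libraries. Symbols, exons and hosted snoRNAs came from GENCODE release 44, those of GAS5 and the transcript starts from RefSeq. Genes were named by 3 rules: every host gene with a mean of at least 1 CPM, list genes called with all 3 siRNAs, and in each list up to 4 extremes. The genes and lists were chosen with earlier results of these data known. Of the core list, 1 gene was not analysed here. The alternatives were other scalings (RLE, upper quartile), other filters, a replicate block, fits on the compared libraries only, the edgeR exact test, DESeq2 1.42.0 and leaving out each library.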

Additional observations from a re-analysis of the deposited data

Results flagged for a closer look

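SNHG16 differed between siRNAs in the direction of its change. It rose with si-snaR-A#1 (0.61 on the log2 scale) and fell with si-snaR-A#2 (-0.36), a difference of 0.97 (SE 0.07, edgeR quasi-likelihood adjusted p = 2.32e-07). Against si-snaR-A#3, with which it also fell (-0.24), the difference was 0.85 (adjusted p = 5.91e-07). SNHG17 rose with si-snaR-A#1 (0.49) and fell with si-snaR-A#3 (-0.33), a difference of 0.81 (SE 0.10, with edgeR adjusted p = 3.09e-05). In each case the libraries of si-snaR-A#1 were above, and those of the other siRNA below, every scramble library. Groups of 3 libraries were too small to look for single libraries that stand apart.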

How the results depend on the processing

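Of 63 called host comparisons, 47 kept their call under every alternative run, 16 lost it under at least 1, and none was reversed. The count with si-snaR-A#2 against scramble, 3, was 5 without a filter on low counts and 6 each with only the libraries compared, with the edgeR exact test and with DESeq2, and ran from 3 to 6 when 1 library was left out. The count with si-snaR-A#3, 6, ran from 3 to 8. For si-snaR-A#2 against si-snaR-A#3 the count of 1 was 0 with only the libraries compared in edgeR (2 at an unadjusted p under 0.05, and 1 call by DESeq2) and ran from 0 to 2. The other 4 counts stayed within 1.5 times under every alternative, at 12 to 16 for si-snaR-A#1 against scramble when 1 library was left out. The cause of these shifts was not tested, beyond the smaller numbers of libraries. With the replicate block, SNHG8 lost its calls with si-snaR-A#1 (adjusted p = 0.0511) and with the mean (0.0552), SNHG21 lost its call for si-snaR-A#1 against si-snaR-A#2 (0.0709), and SNHG7 gained one for si-snaR-A#1 against si-snaR-A#3 (0.0467). Same-numbered libraries correlated at -0.236 to 0.172, with 5 of 18 pairs over 0.1 and 5 of 12 libraries closest to one of their own number, so the numbers are not taken as pairs. SNHG21, si-snaR-A#1 against si-snaR-A#2, was lost under 15 of 20 alternatives and SNHG8 for the mean under 10 of 18. Another scaling moved the median of all genes by less than 0.1 on the log2 scale. At library sizes of at least 120368308 counts, the spread between libraries set the precision for genes above a few CPM.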

Other observations

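Protein-coding genes with snoRNAs in their introns changed in both directions. Of 149 tested, 46 rose and 55 fell with si-snaR-A#1, 31 rose and 15 fell with si-snaR-A#2, and 47 rose and 5 fell with si-snaR-A#3 (edgeR quasi-likelihood test, adjusted p under 0.05 over all genes). Their median log2 fold changes were -0.03, 0.04 and 0.09, against 0.30, 0.00 and -0.08 for the 23 noncoding hosts. Of all genes tested, 21.9% were higher and 23.3% lower with si-snaR-A#1. The shares for si-snaR-A#2 were 13.7% and 12.1%, and those for si-snaR-A#3 were 16.5% and 13.0%. The difference between the groups of genes was not tested.

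With snoRNA and scaRNA genes left aside, 18 of the 23 noncoding hosts have exons that overlap those of another gene, 7 on the same strand and 15 on the opposite strand, and 5 have none. PRSS12, which covers 37.6% of the exons of SNHG8 on the opposite strand, had log2 fold changes of -0.02, 0.40 and 0.43, while SNHG8 had 0.30, 0.28 and 0.21. LRRC75A, opposite to 5.59% of the exons of SNHG29, had 0.18, -0.59 and -0.58, while SNHG29 had 0.04, 0.20 and 0.23.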
